A study of Mus musculus with 6 samples.

Results

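Interferon-stimulated genes are the genes that cells switch on when interferon, a secreted alarm protein of antiviral defence, binds its receptor. The 40 genes described here were chosen by name from a list drawn up with earlier results of these data known: sensors of foreign nucleic acid, the transcription factors of the pathway and its antiviral effectors. All 40 had a row among the 15176 genes of the deposited table, found through GENCODE M21 symbols, and all 40 passed the filter on low values (a mean of at least 10), as did 15006 genes in all. The tissue sequenced was iWAT (inguinal white adipose tissue, the fat under the skin of the groin), and all mice were on a high-fat diet. The 2 Steap4AKO libraries (replicates 2 and 3) came from mice that lack the metalloreductase gene Steap4 in adipocytes. The 4 Steap4f/f libraries (replicates 1, 2, 5 and 6) came from mice that carry the floxed gene. The labels give neither the Cre driver nor age, sex or whether each library was a separate mouse, so that p-values rest on a spread between libraries that may be technical.

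Type I interferons (alpha and beta) signal through the receptor chains Ifnar1 and Ifnar2, and interferon gamma through Ifngr1 and Ifngr2. The kinases Jak1, Jak2 and Tyk2 then phosphorylate STAT proteins. A complex that holds Stat2 and Irf9 binds the interferon-stimulated response element (ISRE), while STAT dimers bind the gamma-activated site (GAS). In adipose tissue, adipocytes, endothelial cells and macrophages can all respond, and macrophages and dendritic cells carry some members, such as Irf8, without any interferon.

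Promoter sequence played no part in the choice of the members, and known interferon response letters were found in some of them. The windows searched run from 250 bases before to 50 bases after each gene start (RefSeq, GRCm38.p6), and 30 of the 40 members had one. The ISRE letters, searched on both strands as GAAA repeated after any 2 bases, were found in 16 of these 30 members (53.3%), against 1079 of 27025 genes with a window (3.99%). The GAS letters TTCNNNGAA, which read the same on both strands, were found in 12 of 30 (40%), against 2582 genes (9.55%), and 6 members held both. Neighbouring matches can overlap, as the 3 in Isg15 do. The first base of the 25 ISRE matches lay between 222 bases before and 33 bases after the start. A match describes these letters only and is no site of binding by itself. The stretches below are shown because they carry the ISRE of members with different behaviour in the Steap4AKO libraries, with every ISRE match in capitals, all upstream of the start (a GAS match that overlaps the first ISRE match in Bst2 is left in lower case where it is not part of the ISRE):
Ifit1 (chr19:34640765-34640833, plus strand): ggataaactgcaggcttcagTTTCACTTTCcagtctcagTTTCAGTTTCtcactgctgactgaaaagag
Ifit3 (chr19:34583353-34583436, plus strand): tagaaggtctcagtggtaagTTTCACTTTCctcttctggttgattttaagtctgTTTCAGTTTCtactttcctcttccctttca
Gbp7 (chr3:142530263-142530312, plus strand): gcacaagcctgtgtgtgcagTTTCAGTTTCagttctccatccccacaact
Rsad2 (chr12:26456543-26456592, minus strand): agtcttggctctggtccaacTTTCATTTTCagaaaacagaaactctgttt
Isg15 (chr4:156200855-156200916, minus strand): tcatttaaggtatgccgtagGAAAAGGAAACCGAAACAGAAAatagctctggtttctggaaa
Oas1a (chr5:120907526-120907565, minus strand): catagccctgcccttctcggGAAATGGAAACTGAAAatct
Bst2 (chr8:71537567-71537622, minus strand): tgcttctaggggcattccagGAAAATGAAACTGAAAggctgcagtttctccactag
Stat2 (chr10:128270256-128270305, plus strand): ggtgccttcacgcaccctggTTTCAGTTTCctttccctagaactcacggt

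For the transcription factors Irf1 and Irf8 the GAS matches are shown instead, since no ISRE letters were in their windows:
Irf1 (chr11:53769904-53769952, plus strand): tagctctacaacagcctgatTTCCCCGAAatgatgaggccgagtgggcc
Irf8 (chr8:120736167-120736233, plus strand): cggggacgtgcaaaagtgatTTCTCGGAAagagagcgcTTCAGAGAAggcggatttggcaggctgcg

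**Figure D1:**
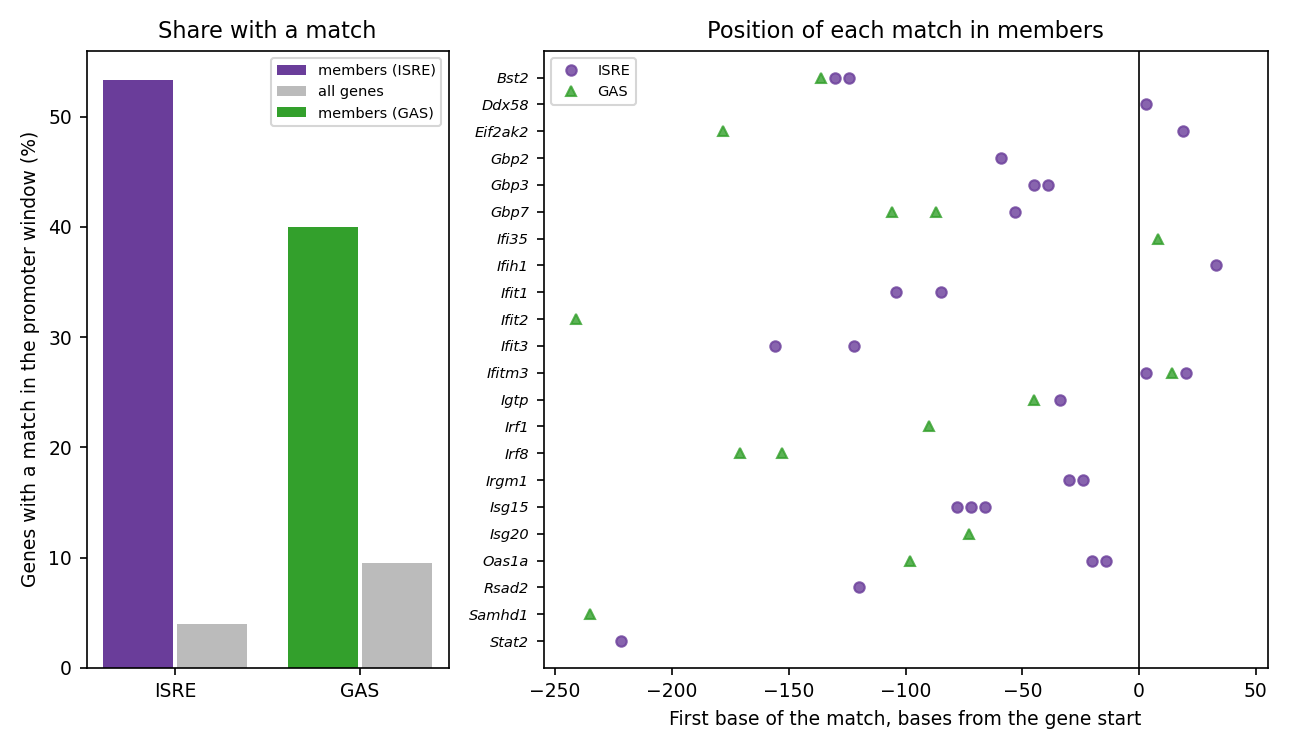
Left, the share of genes (%) with an ISRE or a GAS match in the promoter window, for the 30 members with a window and for all 27025 genes. Right, the first base of each match in bases from the gene start, 1 row per member with a match. ISRE letters were in 53.3% of members, against 3.99% of all genes.

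The values are counts normalized by the authors with DESeq2, and they summed to 16573561 and 17979641 in Steap4AKO and to between 18846321 and 20547925 in Steap4f/f. The libraries were not of like tissue content. Summed over 10 macrophage markers, the 2 Steap4AKO libraries had 27719 (replicate 2) and 8740 (replicate 3), and the Steap4f/f libraries had 9157 to 10314. The sum over 16 skeletal muscle markers was 5993 and 18823 in Steap4AKO, against 133107 to 735237 in Steap4f/f. Adipocyte markers were detected in every library, with Adipoq at 21862 and 36584 in Steap4AKO and 31773 to 43018 in Steap4f/f. Of 10 adipocyte markers, 7 were below the Steap4f/f range in Steap4AKO replicate 2 (28.6% of all genes were) and 1 was above (31.5%). In replicate 3, 3 were below (23.4% of all genes) and 4 above (24.4%). Their median log2 deviations were -0.76 in replicate 2 and 0.09 in replicate 3. Lep was above the range in both, with 55202 and 43434, against 8106 to 22141. Crisp1, a gene of epididymal epithelium, stood at 8127 in Steap4AKO replicate 2 and at 3.3 or less elsewhere. Steap4 itself had 8313 and 8014 in Steap4AKO and 8310 to 17018 in Steap4f/f, so that its level did not check the labels. The part of these differences in the results on members was not tested, and fewer cells of a type cannot be told apart from less RNA per cell in whole tissue. Each Steap4AKO library is therefore given separately against the Steap4f/f range.

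No member passed the test over all genes (limma on log2(value + 1), Benjamini-Hochberg adjusted p under 0.05), against 71 of 15006 genes (0.473%). The smallest adjusted p among the 40 was 0.106, for Ifit2. At an unadjusted p under 0.05 there were 3 members, all higher (Ifit2, Samhd1 and Irf8), against 2715 genes (18.1%). Mean log2 values were higher in Steap4AKO for 27 members (67.5%, against 52.1% of all genes) and lower for 13, with a median log2 difference of 0.17, against 0.02 over all genes tested. The differences ran from -0.60 for Oas2 to 1.23 for Irf8.

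The 2 Steap4AKO libraries stood in different places. In replicate 3, 19 of 40 members (47.5%) lay above every Steap4f/f library and 2 lay below, where 24.4% of all genes tested lay above and 23.4% below. In replicate 2, 9 members (22.5%) lay above and 13 (32.5%) below, where 31.5% of all genes lay above and 28.6% below. Of the 19 members above the range in replicate 3, 14 exceeded the highest Steap4f/f value by more than 10%. Inside the range were 18 members in replicate 2 (39.9% of all genes) and 19 in replicate 3 (52.1% of all genes). The median log2 deviation of the members from the Steap4f/f mean was -0.10 in replicate 2 and 0.32 in replicate 3. It was 0.14, -0.18, 0.11 and -0.01 in Steap4f/f replicates 1, 2, 5 and 6, and between 0.00 and 0.02 in every library over all genes tested. Set against each other, replicate 2 was below replicate 3 for 33 of 40 members, against 49.4% of all genes. There is 1 library on each side of that comparison, and it has no replicate check. With replicate 3 as the only Steap4AKO library, 31 members were higher and 9 lower, and with replicate 2 as the only one, 17 were higher and 23 lower.

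**Figure D2:**
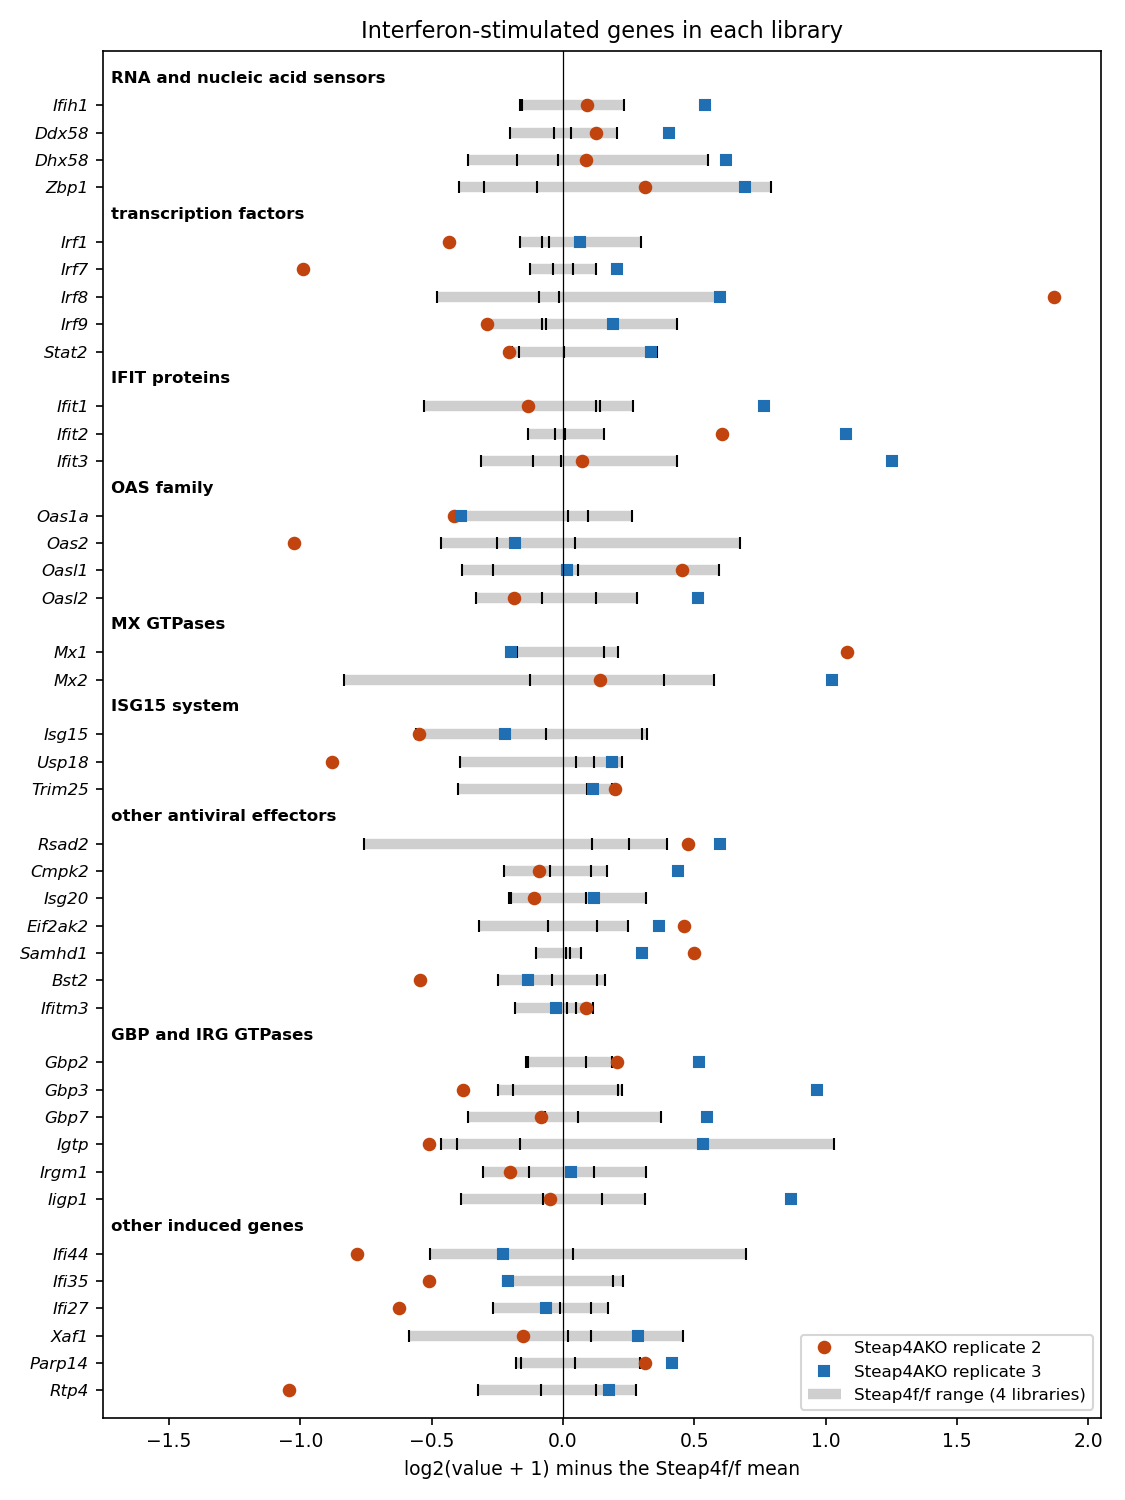
Each row is 1 gene, grouped by role, with the log2(value + 1) minus the Steap4f/f mean on the x axis. Circles are Steap4AKO replicate 2, squares replicate 3, and the grey bar with 4 ticks spans the Steap4f/f libraries. The squares lie above the bar for 19 of 40 genes, the circles for 9.

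**Figure D3:**
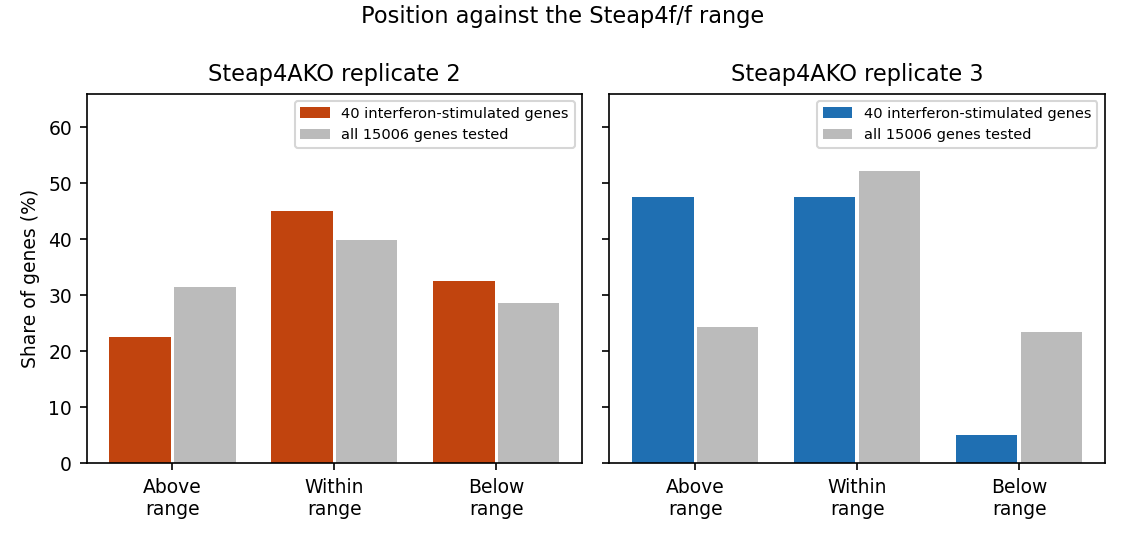
Share of genes (%) above, within and below the Steap4f/f range in each Steap4AKO library, for the 40 members (coloured) and all 15006 genes tested (grey). In replicate 3, 47.5% of members lay above the range, against 24.4% of all genes.

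The cytosolic sensors all had higher means in Steap4AKO, and none passed the test. Ifih1 (MDA5, which binds long double-stranded RNA) had 606.0 in Steap4AKO replicate 2 and 827.4 in replicate 3, against 510.1, 507.4, 668.4 and 604.4 in Steap4f/f. Ddx58 (RIG-I, which binds the ends of viral RNA) had 781.7 and 948.2, against 622.7, 698.7, 826.9 and 732.1. Both were above the Steap4f/f range in replicate 3 and inside it in replicate 2. Dhx58 (LGP2, a partner of both sensors) followed the same order, with 167.1 and 242.5, against 122.3 to 231.2. Zbp1, a sensor of left-handed nucleic acid that can start cell death, had 244.6 and 318.4, against 149.3 to 341.6, and overlapped in both. The log2 differences of the 4 sensors were between 0.27 and 0.50. Exons of Dhx58 overlap Dhx58os on the other strand, as those of Irf1 overlap Gm17334 and those of Irf7 overlap Phrf1, and without a stated strand setting their reads cannot be told apart.

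Among the transcription factors, Irf7 and Irf8 separated the 2 Steap4AKO libraries most. Irf7, which amplifies the production of type I interferon, had 421.5 in Steap4AKO replicate 2 and 965.0 in replicate 3, against 815.0, 767.5, 915.1 and 859.9 in Steap4f/f. Replicate 2 was thus 45.1% below the lowest Steap4f/f library and replicate 3 was 5.45% above the highest. The Steap4f/f libraries varied little for this gene (839.4 ± 63.0, SD, n = 4). The log2 difference was -0.39 (SE 0.30, limma adjusted p = 0.51). With replicate 2 as the only Steap4AKO library it was -0.99, with the spread taken from Steap4f/f alone. With replicate 3 as the only one it was 0.20.

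Irf8, a factor of macrophage and dendritic cell development, had 890.9 and 369.2 in Steap4AKO, against 228.1, 240.8, 365.6 and 174.2 in Steap4f/f. Its log2 difference of 1.23 (SE 0.40) had a limma adjusted p of 0.183. Replicate 3 was only 0.985% above the highest Steap4f/f library, so that the separation rests on replicate 2. In that library the median log2 deviation was 1.25 for macrophage, 2.84 for B and plasma cell and 1.04 for conventional dendritic cell markers. It was -0.33 for plasmacytoid dendritic cell markers. The part of cell content in the Irf8 values was not tested. Irf1, induced by interferon gamma, had 842.1 and 1190.7, against 1399.0, 1017.2, 1096.0 and 1077.0, with replicate 2 below the range. The subunits of the ISRE-binding complex overlapped the Steap4f/f range in at least 1 library. Irf9 had 612.4 and 854.5, against 1011.4, 708.8, 714.7 and 611.4. Stat2 had 849.5 and 1235.1, against 1254.9, 855.5, 982.6 and 872.3, and replicate 2 was 0.701% below the range.

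The IFIT genes, whose products bind foreign RNA, were all highest in Steap4AKO replicate 3. Ifit2 had 432.6 in Steap4AKO replicate 2 and 601.0 in replicate 3, against 316.4, 285.4, 278.1 and 259.0 in Steap4f/f. Both Steap4AKO libraries were above every Steap4f/f library, and the ratio of means was 1.82 (517 ± 119, SD, n = 2, against 285 ± 23.9, SD, n = 4). The log2 difference was 0.84 (SE 0.20, limma adjusted p = 0.106), short of the threshold. Ifit3 had 590.6 and 1340, against 451.8, 518.9, 759.7 and 558.2, and Ifit1, which binds RNA with an incomplete cap, had 212.4 and 397.3, against 254.7, 161.2, 280.5 and 257.1. Replicate 2 was inside the range for Ifit1 and Ifit3, and replicate 3 was above it. The 3 genes lie within 0.1 Mb of chromosome 19 (34550694 to 34650009, GRCm38). Of the 75-base words in Ifit3 transcripts, 41.1% also occur in its copy Ifit3b, so that the split of reads between them is uncertain. Their sum kept the same order, with 769.9 and 1740 in Steap4AKO, against 566.8 to 1047 in Steap4f/f.

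The active enzymes of the OAS family make oligoadenylates that activate the nuclease RNase L. The 4 members listed here, 2 of them OAS-like (Oasl1 and Oasl2), had no common direction. Oas1a had 186.5 and 189.8 in Steap4AKO, against 252.2, 191.9, 298.9 and 265.8 in Steap4f/f (log2 difference -0.40, SE 0.23, limma adjusted p = 0.398). It was the 1 member of 40 below the range in both Steap4AKO libraries, where 14.4% of all genes lay, and its margins were 2.81% and 1.09%. Oas1a shares 47.6% of its 75-base words with Oas1g, and for the sum of both copies replicate 3 was inside the range, with 204.4 and 247.7 against 223.3 to 368.9. Oas2 had 210.7 and 378.6, against 685.6, 360.4, 311.0 and 443.6, and was below the range in replicate 2. Oasl2, a relative of the OAS enzymes that also carries ubiquitin-like domains, had 422.5 and 688.2, against 382.0 to 585.4, and was above it in replicate 3. Oasl1, which in the mouse limits the translation of Irf7, had 88.5 and 65.0, against 49.1 to 97.6.

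The dynamin-like GTPases Mx1 and Mx2, which trap viral particles, were each high in a different Steap4AKO library. Mx1 had 94.2 and 38.2, against 38.4, 38.9, 51.1 and 49.2 in Steap4f/f. Mx2 had 50.4 and 93.8, against 25.2, 41.7, 59.8 and 68.4. Many inbred strains carry a defective Mx1, and the strain is not among the labels. GENCODE M21 classes Mx2 as a polymorphic pseudogene.

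The ISG15 system showed no common direction. Isg15, a ubiquitin-like protein attached to other proteins during the response, had 121.4 and 152.6 in Steap4AKO, against 222.4, 170.1, 219.3 and 120.4 in Steap4f/f, and overlapped in both libraries. Usp18, which removes Isg15 and dampens signalling at the type I receptor, had 80.8 and 170.2, against 174.7, 113.5, 154.7 and 162.0. Replicate 2 was 28.8% below the lowest Steap4f/f library and replicate 3 was inside the range. Trim25, a ubiquitin ligase that acts on RIG-I, had 1466 and 1384, against 968.1 to 1453.

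**Figure D4:**
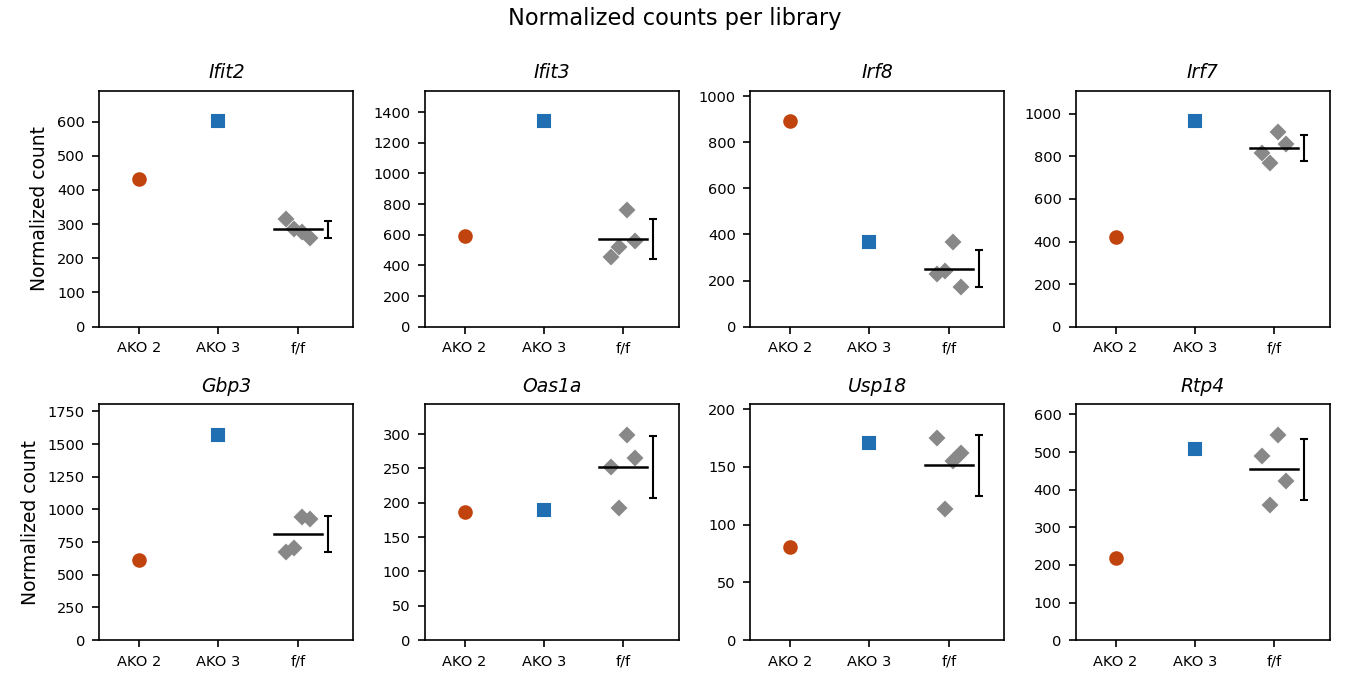
Normalized counts of 8 members, with Steap4AKO replicates 2 and 3 as single points and the 4 Steap4f/f libraries as diamonds with their mean (line) and SD (bar). For Irf7, Gbp3, Usp18 and Rtp4 replicate 2 lies below every Steap4f/f library, and for Ifit2 and Irf8 both Steap4AKO points lie above them.

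Several other antiviral effectors were above the range in both Steap4AKO libraries. In total 7 of 40 members (17.5%) had this pattern, against 14.1% of all genes tested, a share near the background. These were Irf8, Ifit2, Rsad2, Eif2ak2, Samhd1, Gbp2 and Parp14. Samhd1, which depletes the nucleotides that viruses need, had 2446 and 2131 in Steap4AKO, against 1743, 1609, 1761 and 1813 in Steap4f/f, and the spread within Steap4f/f was small (CV 5%). Its log2 difference was 0.40 (SE 0.13, limma adjusted p = 0.182). Eif2ak2 (PKR, a kinase that halts translation on double-stranded RNA) had 527.3 and 493.7, against 306.8, 419.0, 454.3 and 368.2. Rsad2 (viperin, which makes a chain-terminating nucleotide) had 405.7 and 441.0, against 314.2, 171.6, 346.4 and 383.9. Parp14, which attaches ADP-ribose to proteins, had 1380 and 1484, against 1362, 996.1, 1146 and 982.4, with replicate 2 above the range by 1.26%. The adjusted p of the 7 was 0.106 for Ifit2 and 0.182 or more for the others.

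Cmpk2, a nucleotide kinase beside Rsad2 on chromosome 12, had 309.1 and 446.3 in Steap4AKO, against 281.4 to 370.0 in Steap4f/f. Bst2 (tetherin, which holds budding virus at the membrane) had 735.4 and 980.2, against 1202, 904.2, 1175 and 1044, and was below the range in replicate 2. The entry inhibitor Ifitm3 had 2082 and 1925, against 1726 to 2120, and the exonuclease Isg20 had 161.4 and 189.4, against 151.1 to 217.6. For these last 2 genes the Steap4AKO values lay inside the Steap4f/f range, with log2 differences of 0.03 (SE 0.14) and 0.00 (SE 0.25).

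The interferon-inducible GTPases, which attack the membranes around intracellular pathogens, were higher in Steap4AKO replicate 3 than in replicate 2 for all 6 members. Gbp3 had 616.6 and 1571, against 676.3, 703.5, 938.9 and 929.0 in Steap4f/f, so that replicate 2 was 8.83% below the range and replicate 3 was 67.3% above it. Gbp2 had 1858 and 2310, against 1838, 1469, 1713 and 1463. Gbp7 had 687.2 and 1066, against 566.4 to 942.7. Replicate 3 was above the range for all 3 guanylate-binding proteins. Of the 75-base words of Gbp7, 11.3% occur in other genes, against 2.06% for Gbp3 and 0.955% for Gbp2.

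Among the immunity-related GTPases, Iigp1 had 913.8 and 1727, against 1177, 723.0, 898.8 and 1050, and was above the range in replicate 3. Igtp had 431.6 and 891.1, against 1259, 445.5, 549.8 and 465.5, where Steap4f/f replicate 1 stood far above the other 3. Irgm1, a regulator of the other family members, had 565.2 and 664.7, against 526.9 to 810.5. The log2 difference of Igtp was 0.01 (SE 0.46), the widest error in this family. Igtp lies beside Irgm2 and shares exon sequence with it, so that reads of the 2 can be confused.

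Of the 6 remaining induced genes, 4 were below the range in Steap4AKO replicate 2, where 28.6% of all genes were. Parp14, given above, was above the range in both Steap4AKO libraries. Rtp4, an antiviral chaperone, had 217.6 and 508.1, against 490.6, 358.9, 545.8 and 423.8 in Steap4f/f, with replicate 2 below the range by 39.4%. Of its 75-base words 10.5% occur in other genes. Ifi27, a mitochondrial protein and the most abundant member by normalized count, had 4707 and 6944, against 8165, 6035, 7818 and 7208. Ifi44 had 69.6 and 102.7, against 196.1, 123.8, 84.5 and 102.7. Ifi35 had 564.2 and 695.6, against 941.6, 918.3, 703.0 and 686.7. Replicate 2 was below every Steap4f/f library for these 4 genes, and replicate 3 was inside the range for each. Xaf1, which promotes cell death, had 303.1 and 412.0, against 224.7 to 463.8.

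Taken by pattern, 10 members were inside the range in replicate 2 and above it in replicate 3, where 7.52% of all genes were. These were Ifih1, Ddx58, Dhx58, Ifit1, Ifit3, Oasl2, Mx2, Cmpk2, Gbp7 and Iigp1. Another 10 were below the range in replicate 2 and inside it in replicate 3, where 11.4% of all genes were: Irf1, Stat2, Oas2, Usp18, Bst2, Igtp, Ifi44, Ifi35, Ifi27 and Rtp4. Irf7 and Gbp3 were below in replicate 2 and above in replicate 3 (2.78% of all genes), and Mx1 was the reverse (2.63%). The 16 members with the ISRE letters had a median log2 deviation of -0.11 in replicate 2 and 0.46 in replicate 3, and the 14 with a window and no match had -0.13 and 0.20. Of the 16, 9 were above the range in replicate 3 and 5 below it in replicate 2, and of the 14, 6 were above and 4 below. Over all genes tested, 24.4% were above the range in replicate 3 and 28.6% below it in replicate 2. The 12 members with the GAS letters had medians of -0.10 and 0.21, and the 18 with a window and no GAS match had -0.14 and 0.37.

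Members also differed among the 4 Steap4f/f libraries. Replicate 1 was the highest of the 4 for 20 members, against 30.3% of all genes, and replicate 5 for 14, against 21.8%. Replicate 2 was the lowest for 21, against 23.4% of all genes. The coefficient of variation within Steap4f/f had a median of 17.9% over the members and 19.2% over all genes tested. It was widest for Igtp at 57.2%, Zbp1 at 43.1% and Mx2 at 39.5%, and narrowest for Samhd1 at 5% and Irf7 at 7.5%. Steap4f/f replicate 1 also held the highest values of 2 feedback inhibitors of cytokine signalling, named here after their values were seen. Socs3 had 141.9 and 166.5 in Steap4AKO and 821.1 in that library, against 130.9 to 151.3 in the other Steap4f/f libraries. Socs1 had 54.6 and 65.1 in Steap4AKO and 271.6 in that library, against 34.9 to 79.6 in the others.

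Upstream of the members, 0 of 21 interferon ligand genes were among the 15176 genes analysed. No gene of the deposited table had a highest value below 11.8, so that absence from it does not show that a ligand gene was silent. Of 5 receptor genes none passed the test, and 2 were above the range in both Steap4AKO libraries, where 14.1% of all genes were. Ifnar1 had 1229 and 1238, against 951.5 to 1119. Il10rb, a chain of the interferon lambda receptor, had 1065 and 964.2, against 737.3 to 828.3. Ifnar2 (1646 and 1511, against 1478 to 2012), Ifngr1 (3553 and 3696, against 3457 to 5799) and Ifngr2 (768.8 and 537.9, against 503.6 to 833.1) overlapped. Stat3 had 3663 and 3559, against 2268 to 3043 in Steap4f/f, and no gene of the JAK and STAT list passed the test. Of 10 negative regulators none passed the test, and 1 was below the range in both Steap4AKO libraries, where 14.4% of all genes were. This was Pias4, an inhibitor of STAT factors, with 303.7 and 443.6, against 675.5, 553.5, 540.5 and 665.5 in Steap4f/f (log2 difference -0.72, SE 0.21, limma adjusted p = 0.152).

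Of 17 genes for upstream sensing none passed the test. In both Steap4AKO libraries, 3 were above the range (14.1% of all genes) and 1 was below (14.4% of all genes). Tlr3, the endosomal receptor for double-stranded RNA, had 466.1 and 464.7, against 295.3, 326.3, 349.7 and 350.8 (log2 difference 0.50, SE 0.17, limma adjusted p = 0.194). Tlr9, the receptor for DNA with unmethylated CpG, had 111.8 and 43.5, against 16.8 to 23.2. Irf3, which starts interferon transcription, was the 1 gene below, with 583.9 and 605.4, against 662.1 to 1065. In Steap4AKO replicate 2, 10 of these 17 genes were above the range (31.5% of all genes were), including Tlr3, Tlr9 and Tlr4, which were above it in replicate 3 too. Of the other 7, Tlr7 had 213.4, against 52.9 to 84.8 in Steap4f/f, and Tlr8 had 269.9, against 12.4 to 154.8. Both are receptors for single-stranded RNA and were picked after their values were seen. The macrophage, B and plasma cell and conventional dendritic cell lists had high medians in the same library (1.25, 2.84 and 1.04). The part of cell content in these values was not tested.

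A further 85 interferon-induced genes that are no members had a median log2 difference of 0.14, and 0 passed the test. In Steap4AKO replicate 3, 36 of the 85 (42.4%) were above the Steap4f/f range and 11 (12.9%) below, against 24.4% and 23.4% of all genes. In replicate 2, 25 (29.4%) were above and 23 (27.1%) below, near the 31.5% and 28.6% of all genes. Of all genes tested, 14.1% were above the range in both Steap4AKO libraries and 14.4% below it in both. The 17 genes above the range in both Steap4AKO libraries included the restriction factor Samd9l (1227 and 1372, against 779.7 to 972.5) and Gbp9 (804.3 and 1021, against 478.2 to 666.2). They also included Daxx, a transcriptional corepressor (1181 and 1240, against 773.3 to 964.7), and Cxcl10, an interferon-induced chemokine (116.5 and 154.2, against 47.2 to 75.2). The 6 genes below in both included Ifi27l2a, a relative of Ifi27, with 6033 and 14308, against 34777, 28210, 28899 and 22141 in Steap4f/f (log2 difference -1.60, SE 0.34, limma adjusted p = 0.0848). Slfn4 (12.5 and 12.3, against 31.2 to 70.2) was also below.

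**Figure D5:**
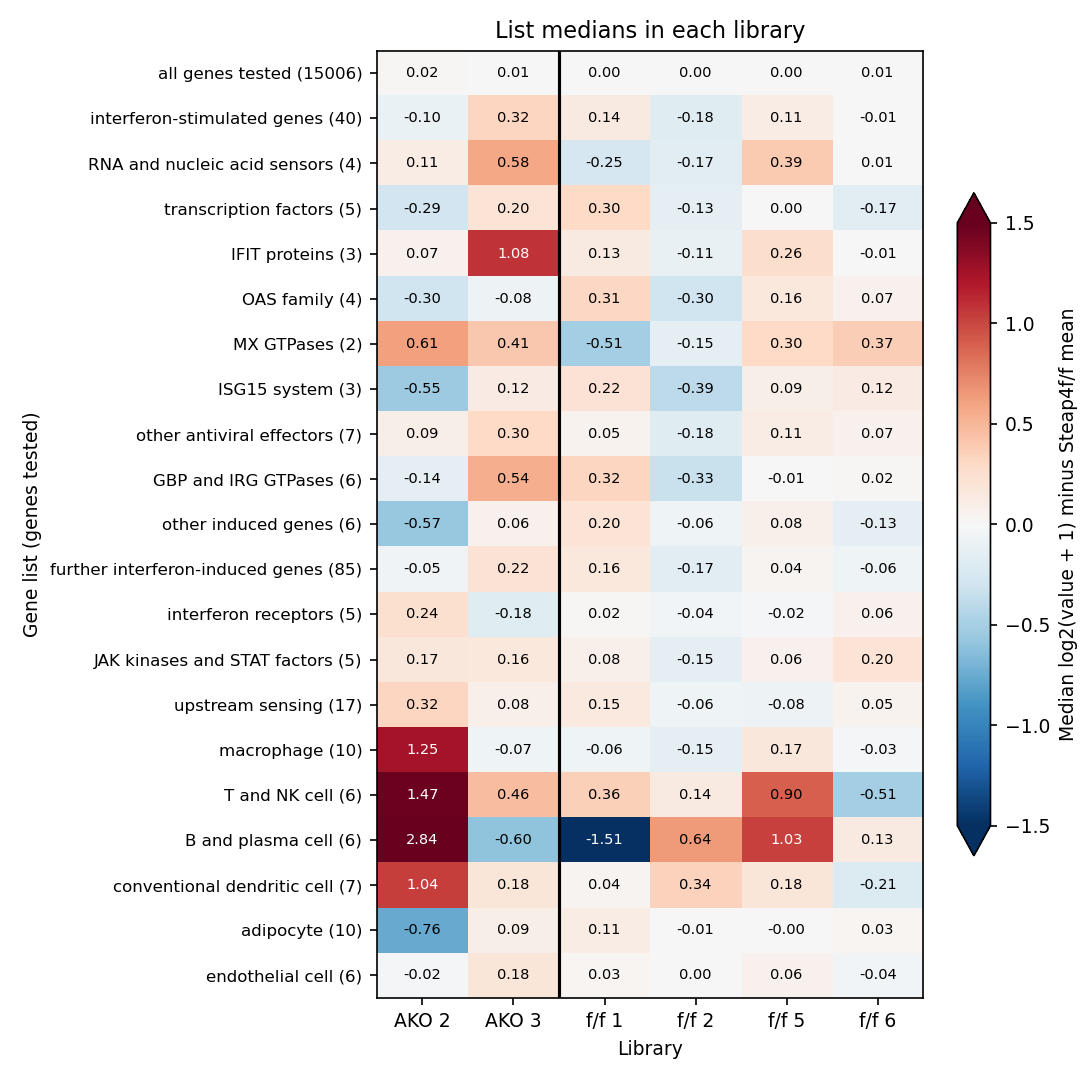
Median log2(value + 1) minus the Steap4f/f mean for each gene list (rows, genes tested in brackets) in each library (columns, Steap4AKO left of the line). In replicate 2 the macrophage list stands at 1.25 and the members at -0.10, and in replicate 3 at -0.07 and 0.32.

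The marker lists of cells that could carry these genes differed in how they stood beside the members. In Steap4AKO replicate 2, 8 of 10 macrophage markers were above the Steap4f/f range, where 31.5% of all genes were. Their median log2 deviation was 1.25, while the members stood at -0.10. In replicate 3, none of the 10 was above (24.4% of all genes) and 2 were below (23.4%). Their median there was -0.07, while the members stood at 0.32. The 6 T and NK cell markers measured summed to 263.1 and 151.0 in Steap4AKO, against 62.6 to 159.1 in Steap4f/f, so that replicate 3 was inside the range. The adipocyte, endothelial, plasmacytoid dendritic cell and skeletal muscle lists had lower medians in replicate 2 than in replicate 3, as the members had. Their medians were -0.76 and 0.09 for adipocytes, -0.02 and 0.18 for endothelial cells and -0.33 and 0.31 for plasmacytoid dendritic cells. The skeletal muscle list stood at -7.04 and -4.4. All other marker lists had higher medians in replicate 2. Among them were B and plasma cells (2.84 and -0.6), conventional dendritic cells (1.04 and 0.18), neutrophils (1.78 and 0.28) and stromal progenitors (-0.07 and -0.44). Of 7 plasmacytoid dendritic cell markers 5 were measured, 1 of them the member Bst2. Of the others, Siglech had 7.9 and 12.9 in Steap4AKO and 13.3 ± 8.07 in Steap4f/f (SD, n = 4), and Tcf4 had 1991 and 2053, against 1277 to 2081. Runx2 had 68.9 and 111.5, against 73.8 to 204.8, and Spib had 48.8 and 3.9, against 0 to 9.4. The 6 endothelial markers summed to 19806 and 21967, against 18031 to 19390, above the range in both Steap4AKO libraries. By gene, only Tek and Cdh5 were above it in both (14.1% of all genes were). Pecam1 was above in replicate 3 alone, Cldn5 was below in replicate 3, and Emcn and Kdr were inside in both. The part of adipocytes, endothelial and immune cells in the member values was not tested.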

How the data were processed

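The authors deposited 1 table of DESeq2-normalized counts, a signal on a linear scale, for 15176 genes and 6 libraries. DESeq2 1.12.4, R 4.2.0, RSEM 1.3.3 and STAR 2.7.0e are the tools, and mm10 (GRCm38) the build, per the submitters' processing notes. Per the labels, the input was total RNA; the strand setting is not given in the sources used. Between 31.6% and 56.3% of values between 0 and 40 per library lay within 0.1 of a whole read, so whole reads were not recovered, the depth in reads is unknown and no count test was run.

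Values were tested as log2(value + 1) with limma 3.58.1 (trend, 2 against 4 libraries, no covariate) in R 4.3.3, over 15006 genes with a mean of at least 10 (170 removed), with Benjamini-Hochberg adjustment over all of them, two-sided, at 0.05. Fold changes on this scale understate those of low genes. A library was above or below the Steap4f/f range when it lay beyond all 4 values. Sharing between genes was read from 75-base words of GENCODE M21 transcripts. Every member was to be accounted for by role; other pathway genes were to be named as receptors or among the 6 smallest p of a list if outside the range in both Steap4AKO libraries. Not every gene of the pathway lists is reported here. The members and lists were chosen with earlier results of these data known. Alternatives were other pseudocounts, filters, scalings, limma settings and leaving out each library.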

Additional observations from a re-analysis of the deposited data

Results flagged for a closer look

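Among the 40 members, 1 had a Steap4f/f library far from the other 3. Igtp stood at 1259 in Steap4f/f replicate 1, against 445.5, 549.8 and 465.5 in Steap4f/f replicates 2, 5 and 6, and at 431.6 and 891.1 in Steap4AKO. The gap to the next library exceeded Dixon's 95% critical value for 4 samples. Chance flags about 1 in 20 groups, and 40 were tested.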

How the results depend on the processing

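The number of genes called in all, 71, was 57 with equal column sums, 67 with no filter, 93 with TMM factors and 95 with quantile normalization. It was 1 with a pseudocount of 0.5, a mean of at least 50 or a robust prior, 13 without trend, 119 with array weights and 123 with a pseudocount of 5. Leaving out 1 library gave 1 to 821, with 821 without Steap4AKO replicate 3, 238 without Steap4f/f replicate 1 and 1 without any other; the cause was not tested. The count of members called was 0 in every setting except without Steap4AKO replicate 3, where it was 1 (0 to 1 over the libraries left out). The members' median log2 difference of 0.17 ran from -0.10 without Steap4AKO replicate 3 to 0.32 without Steap4AKO replicate 2. It was 0.35 with equal column sums, which moved the median of all genes to 0.21. With equal column sums, 8 members were below the range in Steap4AKO replicate 2 and 0 in replicate 3, 11 were above it in both and 0 below it in both. With TMM factors 4 were above it in both. With quantile normalization 0 were below it in replicate 3 and 0 in both. Leaving out 1 Steap4f/f library gave 9 to 14 above in replicate 2 (14 without replicate 5), 2 to 5 below in replicate 3 (5 without replicate 2, 4 without replicate 6), 7 to 12 above in both (12 without replicate 5) and 1 to 3 below in both (3 without replicate 2 or 6). The 19 members above the range in Steap4AKO replicate 3 ranged from 18 to 24 over all settings.

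Some members changed sign with the setting, none of them past the threshold except Irf7. The log2 difference of Igtp was -0.007 with TMM factors, that of Irf9 0.14 and that of Irgm1 0.10 with equal column sums, and that of Xaf1 -0.045 with array weights. With 1 library left out, the log2 difference ran from -0.09 to 0.44 for Cmpk2, -0.38 to 0.97 for Gbp3, -0.083 to 0.55 for Gbp7, -0.14 to 0.77 for Ifit1, -0.029 to 0.088 for Ifitm3, -0.51 to 0.53 for Igtp, -0.051 to 0.87 for Iigp1, -0.43 to 0.065 for Irf1 and -0.99 to 0.20 for Irf7. It ran from -0.29 to 0.19 for Irf9, -0.20 to 0.03 for Irgm1, -0.20 to 1.08 for Mx1, -0.19 to 0.52 for Oasl2, -1.04 to 0.18 for Rtp4, -0.21 to 0.33 for Stat2, -0.88 to 0.19 for Usp18 and -0.15 to 0.29 for Xaf1. Where 1 Steap4AKO library was left, it was assumed to vary like Steap4f/f. No paired analysis was possible because the groups share only the replicate number 2. Count tests were not run, since whole reads were not recovered.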
